A study of Mus musculus with 472 samples.

Results

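Among single ganglion cells of the mouse retina, 79 carried Tbr1 mRNA at 10 counts or more per 1000000 gene counts (CPM), and these Tbr1-positive cells are described here against all cells below that level. The 79 cells made up 16.74% of all cells of the series (95% exact interval 13.5% to 20.4%). All cells came from C57BL/6J mice aged 7 to 9 weeks, as 1 group with no treatment and no named genotype. A patch pipette recorded each cell in the whole-mounted retina during light stimulation and then drew up its content, from which Smart-seq2 libraries were made. Smart-seq2 amplifies full-length transcripts and counts no unique molecules. The recordings were not used here. No animal is named for any cell, so the cells count as 1 sample, nothing was tested between them, and intervals cover counting error only. In what follows a cell is positive for a gene at 10 CPM or more, and a difference is the share of positive cells among the Tbr1-positive cells minus that among the other cells, in percentage points. Share intervals are exact (Clopper-Pearson) and intervals of differences are Newcombe's, all at 95%.

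Tbr1 is a T-box transcription factor that is best known from glutamatergic neurons of the deep cerebral cortex. In the retina it marks a small family of ganglion cells whose dendrites lie in the outer part of the inner plexiform layer. Jam2, an adhesion molecule of cell junctions, marks the best known member of the family, and Sorcs3, a sorting receptor, and Cdh8, a cadherin, have been tied to Tbr1 in these cells. An alpha ganglion cell with OFF responses is also known to carry Tbr1. Alpha cells are large, fast-conducting ganglion cells recognised by Spp1 (osteopontin), Kcng4 (a modifying potassium channel subunit) and neurofilament.

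Tbr1 lies on mouse chromosome 2 at 61802930-61814114, on the plus strand of mm10. Its promoter window is shown because Tbr1 defines the cells, and those of Igf1 and Fes because Igf1 had the largest difference and cells with Fes had the highest share of Tbr1-positive cells of the single genes tabulated below. The windows are RefSeq sequences on GRCm38.p6 that run from 250 bases before to 50 bases after an annotated transcript start, and the capital letter is the start base. They lie at chr2:61804203-61804502 on the plus strand (Tbr1), chr10:87860861-87861160 on the plus strand (Igf1) and chr7:80387897-80388196 on the minus strand (Fes).
Tbr1: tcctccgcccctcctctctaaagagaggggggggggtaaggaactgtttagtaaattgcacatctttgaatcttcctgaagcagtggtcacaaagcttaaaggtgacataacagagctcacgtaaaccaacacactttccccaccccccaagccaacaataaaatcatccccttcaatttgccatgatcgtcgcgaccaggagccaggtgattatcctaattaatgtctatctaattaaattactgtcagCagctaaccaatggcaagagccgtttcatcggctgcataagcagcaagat
Igf1: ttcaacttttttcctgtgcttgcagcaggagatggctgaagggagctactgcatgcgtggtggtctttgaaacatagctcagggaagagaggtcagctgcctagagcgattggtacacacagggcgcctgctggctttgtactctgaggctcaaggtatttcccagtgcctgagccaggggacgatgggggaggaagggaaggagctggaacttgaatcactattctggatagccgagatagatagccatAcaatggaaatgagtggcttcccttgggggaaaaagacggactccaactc
Fes: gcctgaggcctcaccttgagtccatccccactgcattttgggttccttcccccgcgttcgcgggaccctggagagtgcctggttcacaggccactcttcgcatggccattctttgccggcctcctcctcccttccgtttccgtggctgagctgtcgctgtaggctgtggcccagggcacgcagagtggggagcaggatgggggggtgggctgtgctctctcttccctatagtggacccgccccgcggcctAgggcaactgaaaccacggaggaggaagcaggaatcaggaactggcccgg
The Fes window held 64.3% G and C bases, the Igf1 window 52.3% and the Tbr1 window 46%. The letters GGTGTGA, the core of a T-box site, were searched on both strands. They were in 1307 of 32851 promoter windows of the same length (3.98%) and in 2 of the 30 windows found for 22 of the 25 leading genes named below, those of Slc29a4 and Sox6. None of the 3 windows shown holds them.

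Tbr1 ran from 10.4 to 235.9 CPM in the 79 cells, with a median of 45.6 and quartiles of 18.7 and 68.03 CPM. The lowest Tbr1-positive cells had 10.4, 10.6 and 10.9 CPM and the highest cells below the limit 9.84, 9.17 and 8.91 CPM. The level rested on 44 estimated Tbr1 counts or more in every Tbr1-positive cell. Of all cells, 69.3% had no Tbr1 counts and 66 cells (13.98%) had some below the limit, and 3 counts amount to 0.579 CPM at the median depth. Tbr1 was therefore absent or low in most cells and spread over a wide range in the rest, with no gap at the limit.

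The libraries fall into 5 groups by their names, taken here as sequencing runs and called runs A to E. Runs A, D and E were each read from a code within the library name. Runs B and C were read from the start of a library number, so whether each was a single sequencing run is not known. Run A held 49 Tbr1-positive cells (20.9% of its cells), run B 10 of 98 (10.2%), run C 9 of 62 (14.5%), run D 8 of 59 (13.6%) and run E 3 of 19 (15.8%), so every run held some. Run A gave the highest share and most of the cells.

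**Figure D1:**
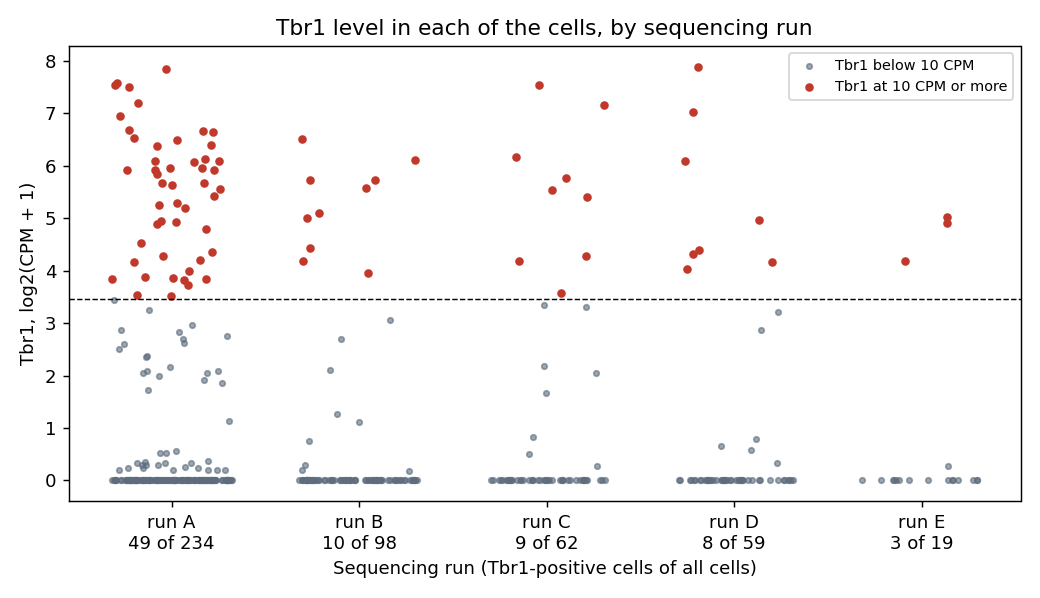
Tbr1 level of each cell as log2(CPM + 1) on the vertical axis, by run as read from the library names on the horizontal axis. There is 1 point per cell, the horizontal spread is only for display and the dashed line is 10 CPM. The 79 Tbr1-positive cells (red) reach 235.9 CPM and occur in all 5 runs, and most other cells (grey) lie at 0.

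The groups had nearly the same depth, but the Tbr1-positive cells had more positive genes. The median depth was 5161358 gene counts in the Tbr1-positive cells (lowest 2538499) and 5195108 in the others (lowest 58907). The Tbr1-positive cells had a median of 6048 positive genes (2252 to 8937) and the other cells 5455 (at most 8357). Spike-in RNA took a median of 0.624% of counts in the Tbr1-positive and 0.777% in the other cells, and mitochondrial genes took 0.354% and 0.339%. With more genes positive, the median difference over 10795 genes positive in 10% to 90% of all cells was 7.42 points, and it was 1.05 points when the other cells were weighted to the same quartiles of positive genes. A gene's difference should be read against that 7.42. Weighted values are given for the leading and lower genes and for the named list members past 20 points, but not within the splits by Spp1, Kcng4 or Fes.

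The label of the cells held for the ganglion cell class. All 79 cells were positive for 6 or more of 12 genes shared by ganglion cells, against 96.9% of the other cells. Isl1, a LIM homeobox factor of ganglion cells, was positive in 94.9% of Tbr1-positive and 73.3% of other cells, and Pou4f1 (Brn3a) in 93.7% and 79.1%.

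The markers of the Tbr1 family showed no difference beyond counting error. Jam2 ran from 0 to 574.5 CPM in the Tbr1-positive cells, with a median of 1.55, and from 0 to 793.6 with a median of 0.544 in the others. It was positive in 35 of 79 Tbr1-positive cells (44.3%, 33.1% to 55.9%) and 42.5% of the others (37.6% to 47.5%), a difference of 1.81 points (-9.73 to 13.8). Sorcs3 was positive in 9 cells (11.4%) against 39 (9.92%), a difference of 1.47 points (-4.79 to 10.7). Cdh8 was positive in 6 cells (7.59%) against 39 (9.92%), a difference of -2.33 points (-7.60 to 6.08). For all 3 genes the groups overlapped and the interval of the difference included 0. Of the 79 cells, 39 (49.4%) had none of the 3 markers, and so did 48.9% of the others. Only 2 Tbr1-positive cells carried all 3, and 5 other cells did. The cells are therefore called by their Tbr1 level here and not by the family's name.

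Read from the other side, 17.3% of the Jam2-positive cells were Tbr1-positive (12.4% to 23.3%), 18.8% of the 48 Sorcs3-positive cells (8.95% to 32.6%) and 13.3% of the 45 Cdh8-positive cells (5.05% to 26.8%). These shares are near the 16.7% of all cells. Among the 72 cells with Jam2 at 100 CPM or more, 11 were Tbr1-positive (15.3%).

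A second set of genes set the Tbr1-positive cells apart. The share of positive cells was at least 20 points higher for 3.46% of the 10795 genes and at least 20 points lower for 8 genes (0.0741%). Of the higher genes, which are 3.46% of the 10795, 300 were higher in each of runs A to D, the runs with 5 or more Tbr1-positive cells. Among all tested coding genes, whose total is not given here, 3243 were higher in each of these runs. These counts rest on unlike bases, so how far the higher genes exceed the rest in likeness of runs cannot be read from them. The higher genes were picked by their pooled difference in the same cells, so the likeness of runs partly restates that choice. With the other cells weighted to the same number of positive genes, 68 genes were at least 20 points higher and 36 at least 20 points lower, so most of the higher genes do not keep that size, and the split between higher and lower genes changes. The leading genes below were the 25 with the largest higher difference among coding genes of 1 direction in runs A to D.

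Igf1, the growth factor ligand insulin-like growth factor 1, led. It ran from 0 to 700.5 CPM in the Tbr1-positive cells with a median of 105.99, and from 0 to 1358 CPM in the others with a median of 0.488. It was positive in 68 of 79 cells (86.1%, 76.5% to 92.8%) against 36.6% (31.9% to 41.6%), a difference of 49.4 points (38.9 to 56.98), or 45.9 points after weighting. The groups overlapped, since some Tbr1-positive cells had no Igf1 and other cells reached higher levels. Its binding protein Igfbp2, which holds the ligand outside the cell, had a median of 208.6 CPM against 0.134, and was positive in 69.6% against 23.9% (45.7 points, 33.97 to 55.6; 40.7 weighted).

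Slitrk6, a leucine-rich repeat protein of synaptic adhesion, had a median of 59.6 CPM against 0, with positive shares of 62% and 20.6% (41.4 points, 38.3 weighted). Fes, a cytoplasmic tyrosine kinase, was rare elsewhere: 36 Tbr1-positive cells had it (45.6%, 34.3% to 57.2%) and 30 others (7.63%, 5.21% to 10.7%), a difference of 37.9 points (37 weighted). Its median in the Tbr1-positive cells was 1.27 CPM, so most of the 79 cells stayed below the limit for Fes. Ctxn3, which encodes the small membrane protein cortexin 3, was picked with its values in view, since run C did not share its direction. It had a median of 380.96 CPM against 0.586 and was positive in 78.5% against 34.1% (44.4 points, 39.5 weighted), but in run C in 22.2% against 24.5%.

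Among secreted and adhesion genes, Pcsk2, a convertase that cuts prohormones, was positive in 83.5% against 46.1% (37.5 points). Nxph1, a secreted ligand of neurexins, was positive in 55.7% against 19.6%, and Sema5a, a semaphorin of axon guidance, in 74.7% against 39.2%. Cdh12, a cadherin, was positive in 64.6% against 31.6%, Ntng1 (netrin-G1) in 79.7% against 47.3%, Coch (cochlin) in 65.8% against 34.4% and Col11a1, a collagen chain, in 45.6% against 14.2%. Spp1 was positive in 77.2% against 40.2%, with medians of 1146 and 1.89 CPM. Gm42793 overlaps 18.8% of the exon bases of Spp1, and reads of the overlap cannot be placed by gene.

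Channel and transporter genes among the 25 were Scn4b, a sodium channel beta subunit (68.4% against 31%), Kcnh2, which encodes an ERG potassium channel (82.3% against 49.1%), Kcng4 (51.9% against 21.4%) and Slc29a4, a monoamine transporter (77.2% against 45.5%). The transcription factors were Sox6 (50.6% against 17%) and Etv1, of the ETS family (59.5% against 27.5%). Stk32a, a kinase, was positive in 86.1% against 49.1%, the orphan receptor Gprc5b in 83.5% against 49.9%, Sorcs1, a relative of Sorcs3, in 69.6% against 37.2%, and the zinc finger gene Zmat4 in 96.2% against 65.1%. The remaining 3 were Fam81a, Phlda1 and Mrpl34, a mitochondrial ribosomal protein, with differences of 32.1 to 35.8 points. Gm28592 overlaps 33% of the exon bases of Phlda1 and Iqck 13.1% of those of Gprc5b. Weighted to positive genes, the 25 differences ran from 21.8 points (Zmat4) to 45.9 points (Igf1), and none fell below 20.

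Among all 10795 genes the 8 with a share at least 20 points lower were Cpne6, Amer2, Gm43670, Arpp21, Grin2a, Cartpt, Fxyd7 and Cpne9. Cpne6, a copine that binds membranes with calcium, was positive in 49.4% against 75.6% (-26.2 points, -33.9 weighted), with medians of 7.85 and 134.3 CPM. Arpp21, a phosphoprotein regulated by cyclic AMP, was positive in 27.8% against 51.9% (-24.1 points), with medians of 0.235 and 15.4 CPM. Grin2a, an NMDA receptor subunit, was positive in 34.2% against 57.3% (-23.1 points). Cartpt, a neuropeptide of direction-selective ganglion cells, was positive in 40.5% against 62.6% (-22.1 points). In run C, Cpne6 (88.9% against 77.4%), Amer2 (77.8% against 67.9%) and Cartpt (66.7% against 54.7%) went the other way, and Grin2a did so in runs C and D. Cpne6, Amer2, Gm43670, Grin2a, Fxyd7 and Cpne9 were named here after their values were seen.

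The 12 lower genes that kept 1 direction in runs A to D were led by Arpp21, and the other 11 differed by -17.9 to -15 points. Chrna3, a nicotinic receptor subunit, was positive in 11 Tbr1-positive cells (13.9%) against 31.8% of the others. Crhr1, the receptor for corticotropin-releasing hormone, was positive in 6 (7.59%) against 95 (24.2%), and Nucb2 in 2 (2.53%) against 69 (17.6%). The other 8 were Wscd1, March1, A930017K11Rik, Slc31a2, Rd3, Tnfsf12, Gas7 and Rbbp9. Tnfsfm13 overlaps 48.3% of the exon bases of Tnfsf12. The median difference over all genes was above 0, so these genes went against it, and all 12 were lower still after weighting (-30.1 to -18.8 points).

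**Figure D2:**
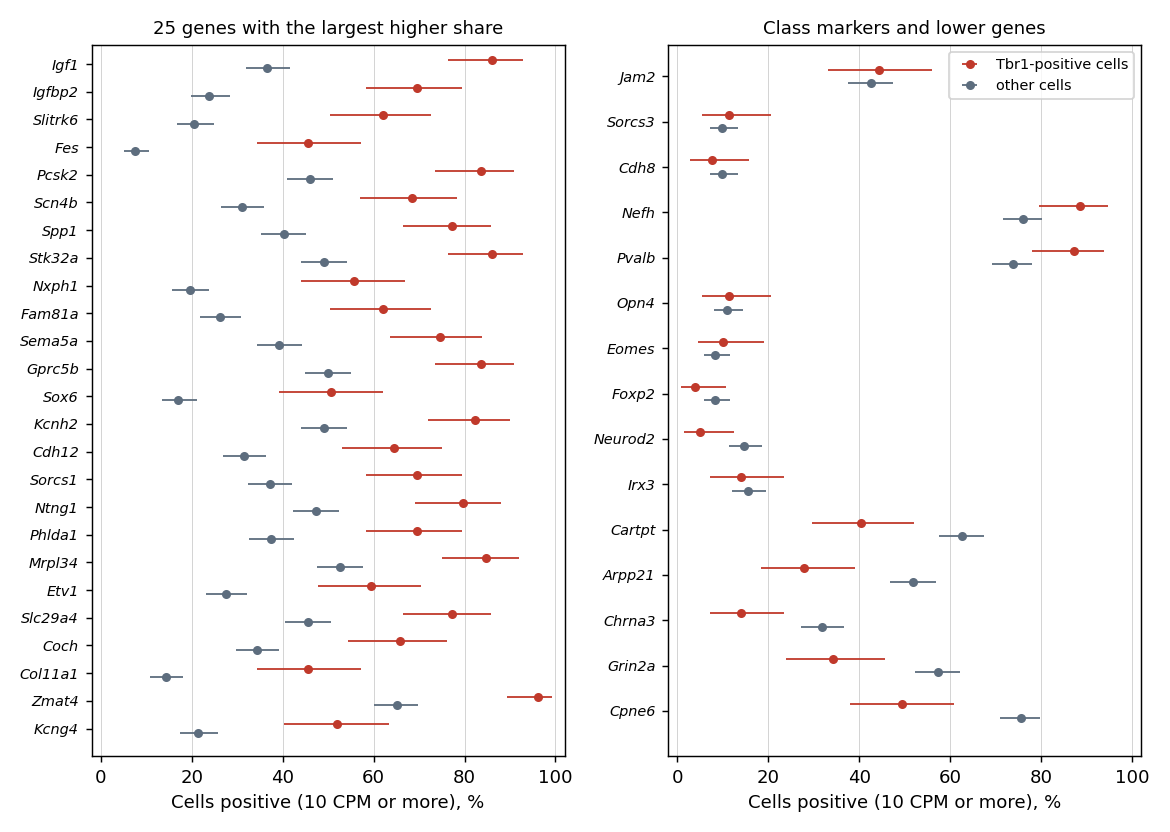
Share of cells positive for each gene (10 CPM or more, horizontal axis, percent) in the 79 Tbr1-positive (red) and all other cells (grey), with exact 95% intervals of counting error; left, the 25 genes with the largest higher share, right, class markers and lower genes. The 25 genes were picked for their difference in these same cells, so the gap between their intervals restates that choice. The intervals of Jam2, Sorcs3 and Cdh8 overlap almost fully.

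For 4 of the leading genes the share of positive cells was set against the Tbr1 level. Fes was positive in 4.89% of the cells with no Tbr1 counts, 21.2% of the 66 with some counts under 10 CPM, 34.9% of the 43 from 10 to under 50 CPM and 58.3% of the 36 at 50 CPM or more. Over the same 4 levels Igfbp2 went from 19.6% through 45.5% and 58.1% to 83.3%, and Slitrk6 from 18% through 33.3% and 55.8% to 69.4%. Igf1 differed mostly across the limit, with 35.2%, 43.9%, 83.7% and 88.9%. Jam2 gave no such order, with 41.6%, 47%, 48.8% and 38.9%. Arpp21 was at 50.2%, 60.6%, 37.2% and 16.7%, and Chrna3 at 30%, 40.9%, 23.3% and 2.78%, so both were lowest in the cells with the most Tbr1. The median number of positive genes was 5228, 5968.5, 6433 and 5780.5 over the 4 levels and did not follow the same order. The share of cells with both Spp1 and Kcng4 was 13.8%, 33.3%, 51.2% and 47.2% over the 4 levels, and its part in these orders was not tested. Since Tbr1 chose the cells and the genes, the orders are descriptions.

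**Figure D3:**
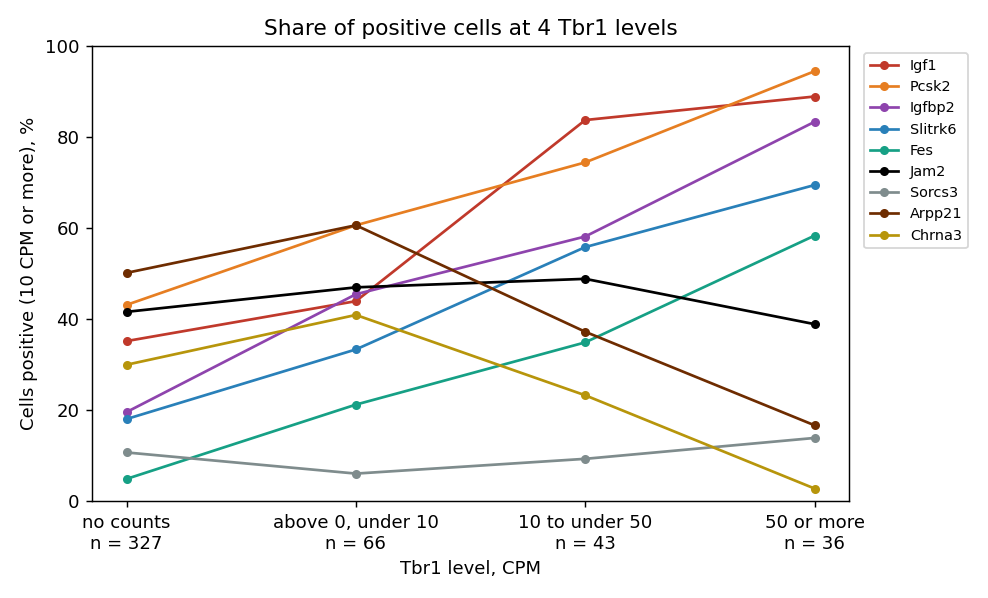
Share of cells positive for 9 genes (vertical axis, percent) at 4 levels of Tbr1 (horizontal axis, CPM, with the number of cells). Igfbp2, Slitrk6 and Fes are higher at each next level, Jam2 and Sorcs3 show no such order, and Arpp21 and Chrna3 are lowest at 50 CPM or more.

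The alpha cell markers were the list most of whose members were higher. Of its 5 genes, Spp1, Kcng4 and Scn4b passed 20 points upward, as did 3.46% of all tested genes. The list's median difference was 30.5 points against 7.42 for all genes. Nefh, the heavy neurofilament, was positive in 88.6% against 76.1% and Pvalb (parvalbumin) in 87.3% against 73.8%. At least 3 of the 5 were positive in 62 Tbr1-positive cells (78.5%, 67.8% to 86.9%) and 43.5% of the others (38.5% to 48.6%). Both Spp1 and Kcng4 were positive in 39 of the 79 cells (49.4%, 37.9% to 60.9%) against 67 others (17%). In run A 59.2% of Tbr1-positive and 28.6% of other cells had the pair. Run B gave 50% and 3.41%, run C 11.1% and 1.89%, and run D 50% and 13.7%. In E, 0 of 3 Tbr1-positive cells had it, against 18.8% of the others. Spp1 and Kcng4 as a pair, and the splits by Fes, Opn4 and Il1rapl2 below, were chosen with these data in view.

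The share of Tbr1-positive cells differed with the further gene that a cell with Spp1 and Kcng4 carried. Of the cells with both genes, 36.8% were Tbr1-positive (27.6% to 46.7%), against 10.9% of the cells without the pair (7.92% to 14.6%). With Fes as well, 24 of 37 were Tbr1-positive (64.9%, 47.5% to 79.8%), and without Fes 15 of 69 (21.7%, 12.7% to 33.3%). In run A alone the counts were 18 of 28 with Fes and 11 of 54 without, and in the other runs together 6 of 9 and 4 of 15. Opn4, the photopigment melanopsin, and Il1rapl2, a synaptic receptor, mark other alpha types. Of the 21 cells with Spp1 and Kcng4 that had either of these and no Fes, 3 were Tbr1-positive (14.3%, 3.05% to 36.3%), whereas of the 27 with Fes and neither, 19 were (70.4%, 49.8% to 86.2%). Fes was picked for its difference between Tbr1-positive and other cells, so the gaps between groups with and without Fes partly restate that choice. Their intervals cover counting error only.

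Igf1, Igfbp2 and Fes were picked for their difference between Tbr1-positive and other cells, so the following shares restate that choice. Of the 47 cells with Igf1, Igfbp2 and Fes, 32 were Tbr1-positive (68.1%, 52.9% to 80.9%). Among the cells with neither Igf1 nor Igfbp2, 7 were Tbr1-positive (3.20% of them, 1.29% to 6.47%). Of all 66 Fes-positive cells, 36 were Tbr1-positive (54.5%), a share with no other single gene of those tabulated above it.

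**Figure D4:**
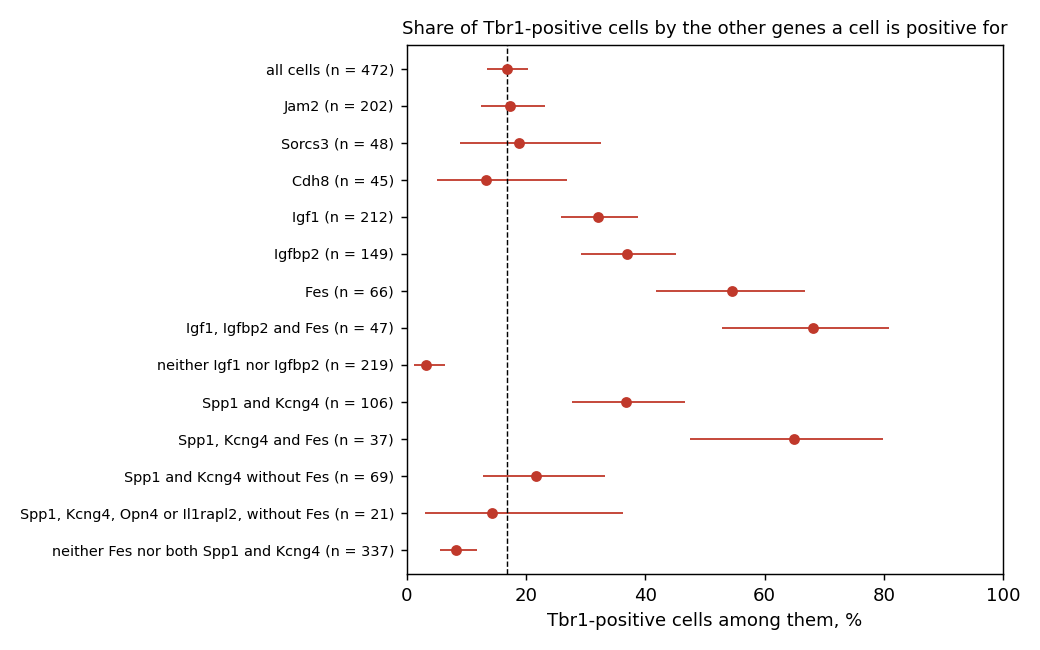
Share of Tbr1-positive cells (horizontal axis, percent, with exact 95% intervals of counting error) among cells grouped by the other genes they are positive for, with the number of cells; the dashed line is the 16.7% of all cells. All cells with Fes, and among them the 37 that also have Spp1 and Kcng4, lie right of the line. Fes was picked for its difference in these same cells, so the place of its groups partly restates that choice. Cells with Jam2, Sorcs3 or Cdh8 lie near it.

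Within the cells with Spp1 and Kcng4, the 39 Tbr1-positive cells were also set against the 67 others. These 39 cells had a median of 6652 positive genes, and the values here are not weighted for that number. How many genes would pass 20 points by counting error alone was not tested. There 650 of 10549 genes were at least 20 points higher (6.16%) and 56 at least 20 points lower (0.531%), with a median difference of 4.94 points. Igf1 was positive in 38 of 39 cells (97.4%) against 30 of 67 (44.8%), Igfbp2 in 94.9% against 49.3% and Nxph1 in 71.8% against 22.4%. Reln, the extracellular protein reelin, which Tbr1 is known to regulate in cortex, was positive in 33 of 39 (84.6%) against 25 of 67 (37.3%). Mgat4c, a glycosyltransferase gene, was positive in 97.4% against 44.8%, Nell1 in 79.5% against 29.9% and Vash2 in 59% against 14.9%.

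Lower in the Tbr1-positive cells of the pair were Cpne6 (38.5% against 83.6%), the muscarinic receptor Chrm1 (1 of 39 cells, 2.56%, against 46.3%), the neurotrophin receptor Ngfr (12.8% against 50.7%) and the phosphodiesterase Pde4b (35.9% against 73.1%). Rph3al was positive in 0 of 39 cells against 28.4%, where 0 of 39 has an exact upper limit of 9.03%. Jam2 was positive in 38.5% against 53.7% (-15.3 points, -33 to 4.33) and Sorcs3 in 1 cell (2.56%) against 10.4%. These genes were chosen after their values were seen, from among the largest differences within the pair.

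Among the cells without the pair, 40 were Tbr1-positive. There 2.26% of 10764 genes were at least 20 points higher and 11 at least 20 points lower (0.102%), with a median difference of 4.43 points. Igf1 was again first, with 30 of 40 cells (75%) against 35%. Stk32a was positive in 82.5% against 45.4%, Pcsk2 in 75% against 39.9%, Slitrk6 in 45% against 14.4%, Ctxn3 in 60% against 29.4% and Fes in 30% against 5.21%. Reln, which differed by 47.3 points within the pair, differed by 3.30 points here. Lower here were the glucose transporter Slc2a1 (40% against 65.6%), the chromatin protein Dek (20% against 43.9%) and Cartpt (45% against 66.6%). Slc2a1 and Dek were named after their values were seen.

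In all, 31 genes were at least 20 points higher both within the pair (6.16% of 10549 genes higher) and outside it (2.26% of 10764 genes higher). How many genes 2 unrelated lists of these sizes would share was not tested. They include Igf1, Ctxn3, Slitrk6, Igfbp2, Lrrc4c, Fes, Col11a1, Sorcs1, Sema5a, Stk32a, Nlgn1, Ntng1 and Nxph1, of which Lrrc4c and Nlgn1 encode synaptic adhesion proteins. Lrrc4c was positive in 92.3% against 59.7% within the pair and 75% against 50% outside it. Lrrc4c and Nlgn1 were named after their values were seen.

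**Figure D5:**
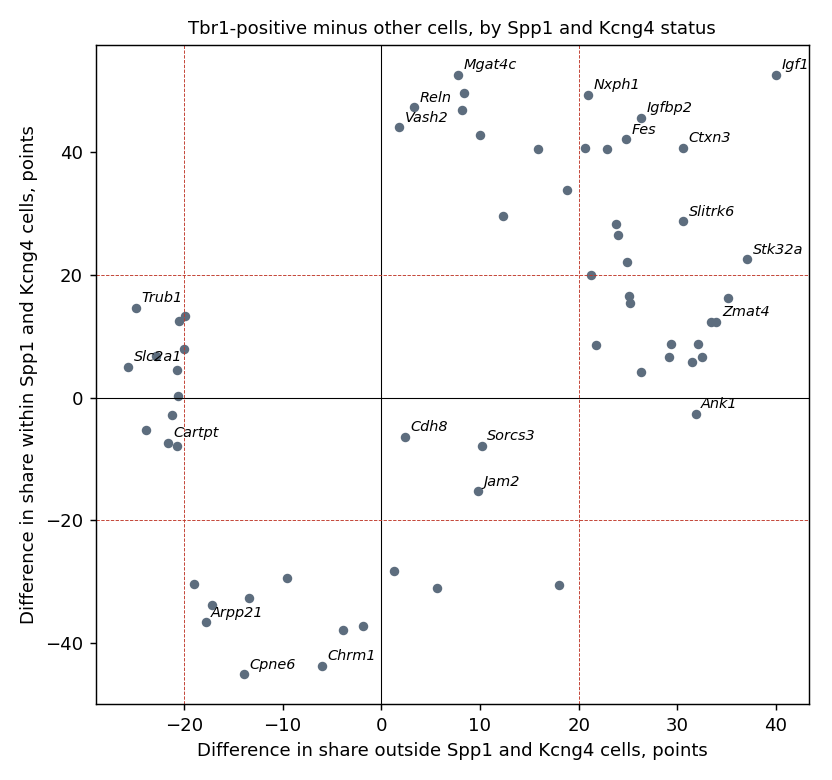
Difference in the share of positive cells, Tbr1-positive minus other cells, within the cells with Spp1 and Kcng4 (vertical axis, points) against the cells without the pair (horizontal axis, points), for the named genes with the largest differences and the Tbr1 family markers; dashed lines are 20 points. Igf1, Igfbp2, Ctxn3, Slitrk6 and Fes lie beyond 20 on both axes, while Reln, Mgat4c and Vash2 do so only within the pair.

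The 40 Tbr1-positive cells without the pair were a mixed set. Of them 28 (70%) still had Spp1, Kcng4 or Scn4b, 12 (30%) had Fes, and 17 (42.5%) had 1 or more of Eomes, Foxp2, Neurod2 and Irx3, factors of other ganglion cell classes. Only 12 of all 79 cells (15.2%) had none of Spp1, Kcng4, Scn4b and Fes. Leaving out every cell with the pair or Fes left 28 Tbr1-positive cells beside the other cells of that kind. In these 28 cells Tbr1 ran from 10.4 to 229.2 CPM with a median of 30.3, and in the 24 cells with Spp1, Kcng4 and Fes from 12.3 to 235.9 with a median of 43.9, so the ranges overlapped.

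In the 28 cells Jam2 was positive in 15 (53.6%, 33.9% to 72.5%) against 39.8% of the others, a difference of 13.8 points (-4.84 to 31.5). Sorcs3 and Cdh8 were positive in 5 cells each (17.9%) against 10% and 10.4%. All 3 family markers thus had higher shares in these Tbr1-positive cells, by 7.50 to 13.8 points, and each interval included 0. The background was 3.97% of 10744 genes at least 20 points higher and 21 genes at least 20 points lower (0.195%), with a median difference of 4.62 points. Igf1 was positive in 19 of 28 cells (67.9%) against 33.3%, whereas Igfbp2 was positive in 7 (25%) against 17.2%. Zmat4 was positive in 27 of 28 cells (96.4%) against 59.6%, with a median of 244.5 CPM. Dek and Timm17b were each positive in 10.7%, against 42.7% and 43.4%. This set was drawn after the values above were seen.

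Genes tied to Tbr1 in the cerebral cortex moved unevenly. Of 8 listed genes in the tested range, only Ntng1 passed 20 points, against 3.46% of all tested genes upward. The list's median over those 8 was 6.95 points against 7.42 for all genes. Reln was positive in 73.4% against 55.5%, Cntn2, a contactin, in 65.8% against 47.3% and Cntnap2 in 92.4% against 78.9%. Auts2 was positive in 75.9% against 75.6% and Grin2b in 48.1% against 49.6%. Bcl11b and Sox5, cortical factors, were positive in 6.33% against 10.9% and 8.86% against 14.2%.

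Transcription factors that mark other ganglion cell classes differed in both directions. None of 10 tested factors passed 20 points, where 3.46% of all tested genes were higher by that much. The 10 ran from -11 to 18.8 points with a median of 0.686, against 7.42 for all genes. Eomes was positive in 8 Tbr1-positive cells (10.1%) against 8.40%, Satb1 in 44.3% against 41.2% and Irx3 in 13.9% against 15.5%. Foxp2 was positive in 3 cells (3.80%) against 8.40%, Neurod2 in 4 (5.06%) against 14.8% (-9.69 points, -14.6 to -1.79) and Bnc2 in 13.9% against 24.9% (-11 points). Tfap2d was positive in 50.6% against 31.8% (18.8 points) and Tbx2, another T-box factor, in 55.7% against 40.2%. One or more of Eomes, Foxp2, Neurod2 and Irx3 were positive in 22 Tbr1-positive cells (27.8%) and 38.7% of the others.

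Among the 10 tested factors of ganglion cell fate only Isl1 passed 20 points (14.1 points weighted), against 3.46% of all tested genes upward. The list median was 11 points, against 7.42 for all genes. Ebf1 was positive in 97.5% against 83%, Sox11 in 53.2% against 36.9% and Pou4f2 (Brn3b) in 34.2% against 27%. Pou4f3 (Brn3c) was positive in 16.5% against 26%.

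The markers of direction-selective, melanopsin and F-type ganglion cells gave 1 lower and 1 higher gene. Of all tested genes 0.0741% were lower and 3.46% higher by 20 points. Of the 3 tested direction-selective markers Cartpt was lower, and Cdh6 was positive in 24.1% against 34.4%. Opn4 was positive in 9 cells (11.4%) against 10.9%. Coch, on the F-type list, was higher, while Foxp1 of the same list was positive in 22.8% against 18.6%.

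The lists that follow are read against the 3.46% of all tested genes at least 20 points higher and the median of 7.42 points over all genes. Of 24 guidance genes 5 passed 20 points upward and 0 downward, with a median of 11.2 points. Unc5c, a netrin receptor, was positive in 58.2% against 29.8% (24 points weighted), Epha6 in 68.4% against 40.7% (21.6 weighted) and Epha4 in 64.6% against 41.7% (16.6 weighted). Slit2, a secreted guidance ligand, was positive in 44.3% against 55% and Nrp2, of the same list, in 21.5% against 31%. Of 10 tested classical cadherins only Cdh12 passed, and of 9 protocadherins only Pcdh19 (44.3% against 23.7%, 16.7 points weighted). None of 9 tested sidekick, Dscam and contactin genes passed, nor any of 3 junctional adhesion genes. Of the 5 sorting receptors Sorcs1 passed, with Sort1 at 60.8% against 47.8% and Sorl1 at 65.8% against 65.6%.

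Of 31 tested potassium channel genes 5 passed 20 points upward and 0 downward, with a median of 12.7 points against the 7.42 of all genes. Beside Kcnh2 and Kcng4, Kcnj9, an inward rectifier, was positive in 83.5% against 54.5% (20.4 points weighted) and Kcnk1, a leak channel, in 67.1% against 43.8% (17.9 weighted). Of 8 tested sodium channel genes only Scn4b passed, and its relative Scn3b was positive in 32.9% against 46.1% (-13.1 points). Scn8a, which carries much of the axonal sodium current, was positive in 97.5% against 83.2%. Of 17 calcium and HCN channel genes Cacnb2 (79.7% against 57.8%), Hcn2 (41.8% against 20.9%) and Cacna1g (57% against 36.9%) passed, with a list median of 11.1 points. Weighted, these 3 differed by 13.2, 17.7 and 14.9 points. Cacna1i, like Cacna1g a T-type channel, was positive in 10.1% against 19.1%.

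Receptor genes moved in both directions. Of 17 tested glutamate receptor genes Grid1 passed upward (45.6% against 25.4%, 15.4 points weighted) and Grin2a downward, with a median of 5.93 points. Grin3a, an NMDA receptor subunit, was positive in 29.1% against 10.7%. Of 16 GABA and glycine receptor genes Glra1 (49.4% against 19.6%, 26.9 points weighted) and Gabra3 (50.6% against 27.5%, 17.4 weighted) passed upward, and Gabra4 was positive in 13.9% against 28.2%. Of 11 tested receptor genes for acetylcholine, dopamine and serotonin, Htr1b (79.7% against 51.1%), Chrna4 (62% against 36.1%) and Drd1 (63.3% against 41.5%) passed upward, with a list median of 1.91 points, below the 7.42 of all genes. Weighted, these 3 differed by 22.7, 19.7 and 15.7 points. Chrm1 was positive in 5.06% against 19.1%. The nicotinic subunits Chrna4 and Chrna3 thus differed in opposite directions. Among neuropeptide genes Gal (galanin) was positive in 31 cells (39.2%) against 55 (14%), a difference of 25.2 points (24.4 weighted), and Cartpt was lower.

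Calcium-binding protein genes gave no member past 20 points among 10 tested. Calb2 (calretinin) was positive in 98.7% against 90.3%, Cabp1 in 84.8% against 65.9% and Hpcal1 in 49.4% against 56%. None of 8 tested activity and stress genes passed either, with Fos positive in 88.6% against 86% and Atf3, an injury factor, in 8.86% against 9.92%.

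A patch pipette can pass or touch other cells of the retina, so their markers were also counted. No marker of rods, cones, bipolar, amacrine, horizontal or Müller cells, astrocytes, microglia, vessels or blood passed 20 points in either direction. Of 8 rod markers at least 3 were positive in 56 Tbr1-positive cells (70.9%) and 61.6% of the others, with summed levels of 1.60 to 13436 CPM (median 442.2) and 0 to 199922 CPM (median 433.3). Of 8 amacrine markers at least 3 were positive in 51.9% against 40.5%, with medians of 497.2 and 281.5 CPM. For 8 bipolar markers the shares with 3 or more were 29.1% and 31.8%, for 5 Müller markers 16.5% and 23.4%, for 6 cone markers 7.59% and 11.5%. No Tbr1-positive cell had 3 of 5 vessel markers, and 2 of the 5 were at 0 in all 79. The comparison was rerun only without the cells at the bipolar limit, which left 56 Tbr1-positive cells. The share of genes at least 20 points higher then went from 3.46% to 15.7%, and the share lower from 0.0741% to 0.124%. Of 45 named genes past 20 points, 44 stayed past it. The cause of this change was not tested, and neither was the part of the other cell types in the differences above.

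The Tbr1-positive cells also resembled each other in genes other than Tbr1. Each cell was paired with its most correlated cell over the 2000 most variable genes without Tbr1, among 460 cells with at least 1000 positive genes. For 42 of the 79 cells (53.2%, 41.6% to 64.5%) that neighbour was another Tbr1-positive cell, while Tbr1-positive cells made up 17.2% of the 460 and were the neighbour of 16.8% of the others. The count was 26 of the 39 cells with Spp1 and Kcng4 and 16 of the other 40. Tbr1-positive cells made up 36.8% of the cells with the pair and 10.9% of those without it, so these counts give no order of likeness. Within a run, the median correlation was 0.153 between Tbr1-positive cells, 0.115 between a Tbr1-positive and another cell and 0.105 between other cells. Among cells with the pair these values were 0.196, 0.153 and 0.136, and among cells without it 0.124, 0.110 and 0.104. The correlations share the libraries' depth and number of positive genes and are given as descriptions.

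The Tbr1-positive cells were also split by the family markers, and the genes named are the extremes of all genes compared, given as descriptions. Splitting the 79 cells by Jam2 (35 positive, 44 negative) gave Trim39 the largest difference, with 74.3% against 34.1%, followed by Cpne6 and Cit, each with 71.4% against 31.8%. Cpne6, one of the 8 lower genes, was thus more frequent in the Tbr1-positive cells that carried Jam2. The splits by Sorcs3 (9 cells) and Cdh8 (6 cells) rest on few cells; their largest differences were Fam208b (9 of 9 Sorcs3-positive cells, 100%, against 35.7%) and Nuak1 (83.3% against 8.22%).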

How the data were processed

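The authors deposited estimated counts per gene and cell for 55450 genes and 92 spike-in RNAs, of which 1.36% were not whole. Reads were aligned with STAR 2.7.0 to mm10, per the submitters' processing notes. The counting tool and its annotation: not given in the sources used here. Counts were rounded, and CPM were computed over the genes alone, spike-ins left out. Shares use every cell. Gene positions are from GENCODE mouse release 21 (mm10), which holds all 55450 identifiers. Depth ran from 58907 to 13004880 gene counts per cell, and 7 cells had under 1000000, none of them Tbr1-positive. In 1 cell, 3 counts exceed 10 CPM. Each cell was picked singly and no doublet caller was run.

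The cells, the 34 gene lists (336 genes) and the comparisons were chosen with earlier results of these data known. The text may name any gene of a list with no more than 14 genes, from longer lists 4 at either end, the 25 highest and 12 lowest coding genes of 1 direction in every run with 5 or more Tbr1-positive cells, and 6 for each split by Jam2, Sorcs3 or Cdh8; for other genes the text says that their values were known. Weighting gives the other cells the quartile make-up of positive genes, or the run make-up, of the Tbr1-positive cells. The gene comparison and the neighbour search were tested on simulated data. The work used matplotlib 3.10.9, pandas 2.3.3, scipy 1.17.1, numpy 2.4.6 and Python 3.11.15.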

Additional observations from a re-analysis of the deposited data

Results flagged for a closer look

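Spike-in RNA, which enters no comparison, took up to 3.588% of the counts of a Tbr1-positive cell, with a median of 0.624% over the 79 cells; a share above 0 in added RNA, with no control cells to compare, is why it is listed. In the other cells the highest share was 31.1%.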

How the results depend on the processing

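Of 270 named genes, not all of them in the tested range, 45 differed by at least 20 points. Of these, 40 still did with every cell thinned to 1000000 counts, 39 weighted to runs, 34 weighted to positive genes, 33 without run A and 18 with a limit of 100 CPM for a positive cell. The 79 cells became 11 at a Tbr1 limit of 100 CPM and 30 without run A. The share of genes at least 20 points higher, 3.46%, became 6.31% at a Tbr1 limit of 1 CPM, 10.5% at 100 CPM, 1.08% in cells with at least 3000 positive genes, 6.26% against cells with no Tbr1 counts, 9.25% by a log2 difference of at least 1, 2.53% at a positive limit of 100 CPM, 0.630% weighted to positive genes, 2.16% weighted to runs, 15.7% without cells with 3 bipolar markers, 6.16% within and 2.26% outside the cells with Spp1 and Kcng4; leaving out 1 run gave 2.39% (run D) to 11.4% (run A). The share at least 20 points lower, 0.0741%, became 0.00926% at a Tbr1 limit of 1 CPM, 3.56% at 100 CPM, 0.531% within the pair, 0.235% with at least 3000 positive genes, 0.204% by the log2 difference, 0.333% weighted to positive genes and 0.124% without the bipolar-marker cells; leaving out 1 run gave 0.0554% to 0.103%. The nearest-cell share was 53.2% with Tbr1-positive cells at 17.2% of the cells compared, and 18.2% at a Tbr1 limit of 100 CPM. At that limit 11 cells remain, 2.33% of all cells, so the 2 shares rest on unlike bases. Within the pair the difference of Jam2 was -15.3 and of Sorcs3 -7.88 points, and Sorcs3 was at 10.9 points without run A. Signs reversed for Epha4 (-0.0986 points at a Tbr1 limit of 100 CPM), Gabra3 (-0.548), Mrpl34 (-1.79) and Phlda1 (-0.00644) at a positive limit of 100 CPM, and Kcng4 (-0.215) outside the pair, where the pair's absence defines the cells. The causes of these changes were not tested. The weighting to positive genes and the split by Spp1 and Kcng4 were chosen after seeing the data. No paired analysis was possible because all cells form 1 group. Depth is not the limit for Tbr1 at 10 CPM, but no animals are named, so differences between animals are not measured.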
